A study of Mus musculus with 14 samples.

Results

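The genes described here encode the constitutive proteasome, the protease complex of every cell, with the activators, inhibitor and assembly chaperones that bind it. They were found by name: probes outside the control spots whose gene name or current symbol starts with Psma, Psmb, Psmc, Psmd, Psme or Psmf followed by a number, leaving out the immunoproteasome genes Psmb8, Psmb9 and Psmb10. The brightest probe stood for each gene. The rule took 60 probes of 42 genes, out of 35770 gene names on the array. Of these genes, 40 are subunits or regulators of the complex. The remaining 2, Psmc3ip and Psme3ip1, are named for proteins that bind a subunit, and were kept apart. After a filter on signal 39 of the 40 were tested among 32399 genes. Psmb11, the beta subunit of the thymus form, was not well above background on any array, and no probe of the rule named Psmd1.

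RNA came from the livers of 14 mice, all C57BL/6 males 1 year old, and was measured on two-colour Agilent whole-genome arrays, 1 animal per array. The standard-diet group (n = 5) ate AIN-93G, a purified rodent diet. The high-calorie group (n = 5) ate AIN-93G modified so that 60% of calories came from fat, and the resveratrol group (n = 4) ate that modified diet with 0.04% resveratrol, a plant polyphenol. Each animal's RNA was labelled with Cy3 and compared with a Cy5-labelled pool of 5 standard-diet livers, so values are log2 ratios of an animal over the pool, and 0 means the level of the pool. No group combined the standard diet with resveratrol.

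The 26S proteasome degrades proteins that carry a ubiquitin chain. Its barrel-shaped core has outer rings of alpha subunits, which gate entry, and inner rings of beta subunits, which hold the proteolytic sites. The regulatory particle caps the core: its base unfolds substrates with a ring of ATPases, and its lid removes the ubiquitin. Subunit genes are known to be induced together by the transcription factors NFE2L1 and NFE2L2, through antioxidant response elements in their promoters.

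Promoters are shown for 4 members: Psmd11, the 1 member that passed the test, the catalytic beta subunits Psmb5 and Psmb6, and Psmd9, a chaperone of base assembly. Psmb5, Psmb6 and Psmd9 hold the sequence marked below, which most members with a promoter do not. Each is the stretch of 250 bases before the start of the gene, from RefSeq on GRCm38.p6, in the gene's own direction, and capitals mark matches to TGACNNNGC, the core of the antioxidant response element, on either strand. The Psmd11 stretch lies at chr11:80428365-80428614 on the plus strand, that of Psmb5 at chr14:54617996-54618245 on the minus strand, that of Psmb6 at chr11:70525107-70525356 on the plus strand and that of Psmd9 at chr5:123227940-123228189 on the plus strand.
Psmd11: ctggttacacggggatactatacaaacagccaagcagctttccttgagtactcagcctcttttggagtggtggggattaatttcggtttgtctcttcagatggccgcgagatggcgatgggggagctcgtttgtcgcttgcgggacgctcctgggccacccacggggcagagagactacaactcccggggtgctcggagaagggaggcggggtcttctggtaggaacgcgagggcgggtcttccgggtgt
Psmb5: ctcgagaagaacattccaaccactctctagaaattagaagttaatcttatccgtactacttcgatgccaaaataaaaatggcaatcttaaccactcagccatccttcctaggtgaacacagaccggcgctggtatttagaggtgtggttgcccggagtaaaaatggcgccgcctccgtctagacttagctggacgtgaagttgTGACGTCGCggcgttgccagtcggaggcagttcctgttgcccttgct
Psmb6: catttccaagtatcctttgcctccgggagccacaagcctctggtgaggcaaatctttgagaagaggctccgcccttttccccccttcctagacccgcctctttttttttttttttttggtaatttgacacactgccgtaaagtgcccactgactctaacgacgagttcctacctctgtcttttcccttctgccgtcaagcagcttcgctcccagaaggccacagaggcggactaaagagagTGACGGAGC
Psmd9: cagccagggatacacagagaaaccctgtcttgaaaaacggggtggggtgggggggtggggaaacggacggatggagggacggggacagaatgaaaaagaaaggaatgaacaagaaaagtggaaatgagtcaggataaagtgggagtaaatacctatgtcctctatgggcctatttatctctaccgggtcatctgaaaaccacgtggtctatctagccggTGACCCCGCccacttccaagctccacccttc
The promoter table held 34 of the proteasome genes, Psmb11 and Psmd1 among them, and did not hold Psma8, Psmb1, Psmb2, Psmb7, Psmc3, Psmd3 and Psmd7. TGACNNNGC was found for 5 of the 34 genes: Psmb5, Psmb6, Psmc6, Psmd9 and Psmd12. Of the 37 promoters of these genes 13.5% held it, against 10.2% of all 32851 promoters of the table. CCAAT, the box bound by NF-Y, was in 35.1% of the proteasome promoters and 33.8% of all promoters. GGGCGG, a GC box, was in 56.8% and 32.7%. Both strands were searched, no other motif was searched, and a match describes the letters only. Psmd11 holds neither TGACNNNGC nor CCAAT in this stretch.

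The arrays were compared before the diets. Between the 14 arrays, the percentage of probes detected over background with Cy3 ran from 77.9% to 92.4%. All 39 tested members were well above background on all 14 arrays, and none was saturated. Standard-diet replicate 2 stood apart for these genes: the median ratio of the members was -0.32 on it and 0.058 to 0.12 on the other standard-diet arrays. It held 33 of 39 members below the pool and gave 26 of 39 members their lowest value of all 14 arrays, where 15.4% of all genes were lowest. It was also the dimmest array, with a median net Cy3 signal of 48.6 intensity units against 57.7 to 114 on the others, and the part of brightness in its low values was not tested. Resveratrol replicate 1 was next lowest, with a member median of -0.16 and 24 of 39 members below the pool, and its brightness of 83.2 was within the range of the others. The remaining medians were 0.024 to 0.14 on the high-calorie arrays and 0.0064 to 0.11 on the resveratrol arrays. Each comparison below therefore has its median and its count of positive members also without whichever of these arrays enters it.

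**Figure D1:**
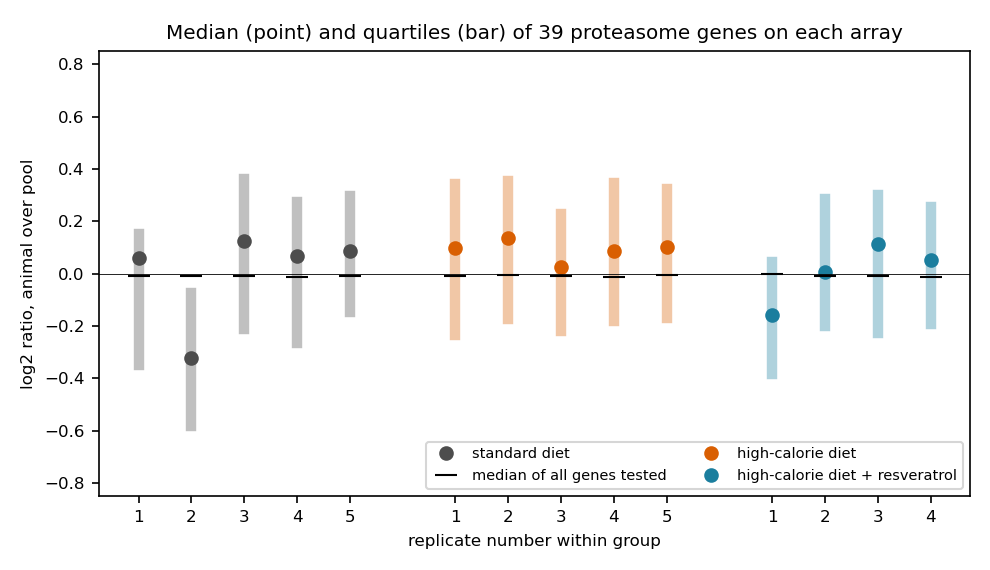
Points show the median log2 ratio of the 39 proteasome genes on each of the 14 arrays, bars their quartiles, and short black lines the median of all genes tested. Standard-diet replicate 2 lies at -0.32 and resveratrol replicate 1 at -0.16, and the other 12 arrays lie between 0.0064 and 0.14.

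The labelled tissue was checked by its markers. Of the hepatocyte markers, 7 of 8 listed genes (Alb, Apoa1, Ttr, Trf, Tat, Apob and Fgb) were measured, each well above background on at least 13 arrays. Their summed Cy3 signal was 915 to 1333 times the array's 75th percentile on the standard diet. It was 655 to 1118 times that percentile on the high-calorie diet and 841 to 1247 times when resveratrol was added. Alb was saturated on 11 of the 14 arrays and Fgb on 1, so these sums are lower bounds and no difference between diets was read from them. Over the marker lists of all cell types, 5 of 37 tested genes were called higher and 3 lower on the high-calorie diet, where 9.48% of all genes were called. With bulk RNA fewer cells of a type and less RNA per cell cannot be told apart. The 8 macrophage markers summed to 11.7 to 14.7 times the 75th percentile on the standard diet, 15.5 to 19.8 times on the high-calorie diet and 12.3 to 29.7 times when resveratrol was added, and their sum on standard-diet replicate 2, 11.7, was the lowest of all arrays. All 8 were above background on all 14 arrays, so none was at 0. On the high-calorie diet 6 of their differences were positive and 2 negative. Ctss was called higher, and at an unadjusted p under 0.05 3 were higher and 1, Csf1r, was lower. Csf1r was called higher with resveratrol than without. Of the 5 tested stellate cell markers, Lrat, Col1a1 and Col3a1 were called higher and Acta2 lower on the high-calorie diet, and Lrat and Col3a1 were called lower with resveratrol than without. These 5 summed to 7.54 to 8.44 times the 75th percentile on the standard diet, 8.26 to 10.4 times on the high-calorie diet and 7.99 to 9.13 times when resveratrol was added. The other calls on the high-calorie diet were Pecam1, of endothelium, higher, and Apoa1, of hepatocytes, and Cd3d, of lymphocytes, lower. The part of these cells in the values below was not tested.

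Psma1, Psma3, Psma5, Psma6, Psmb1, Psmb3, Psmb4, Psmd7 and Psmd8 are described below after their values were seen; the other genes given array by array are the called member, the catalytic and ubiquitin-handling subunits, the activators, the inhibitor and the tissue-specific forms.

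The first question was what the high-calorie diet did to the constitutive proteasome. By limma with Benjamini-Hochberg adjustment, none of the 39 members passed an adjusted p of 0.05 between high-calorie and standard-diet mice. Of all genes tested, 9.48% passed, 5.4% higher and 4.09% lower. At an unadjusted p under 0.05 there were 8 members higher and 3 lower, where 27.7% of all genes were under it, 14.3% higher and 13.3% lower. Differences were small: 30 members were positive and 9 negative, the median log2 difference was 0.10 against -0.0023 for all genes, and the members ran from -0.20 to 0.45. The 95% interval of the difference stayed within 1.5-fold in either direction for 31 members and within 2-fold for all 39. The groups overlapped for every member, while 10.3% of all genes had groups that did not overlap, 5.17% higher and 5.17% lower. Each p-value sets a difference against the moderated spread between animals within a diet, pooled over all diets. That spread also holds differences between arrays, since each animal was on its own array.

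**Figure D2:**
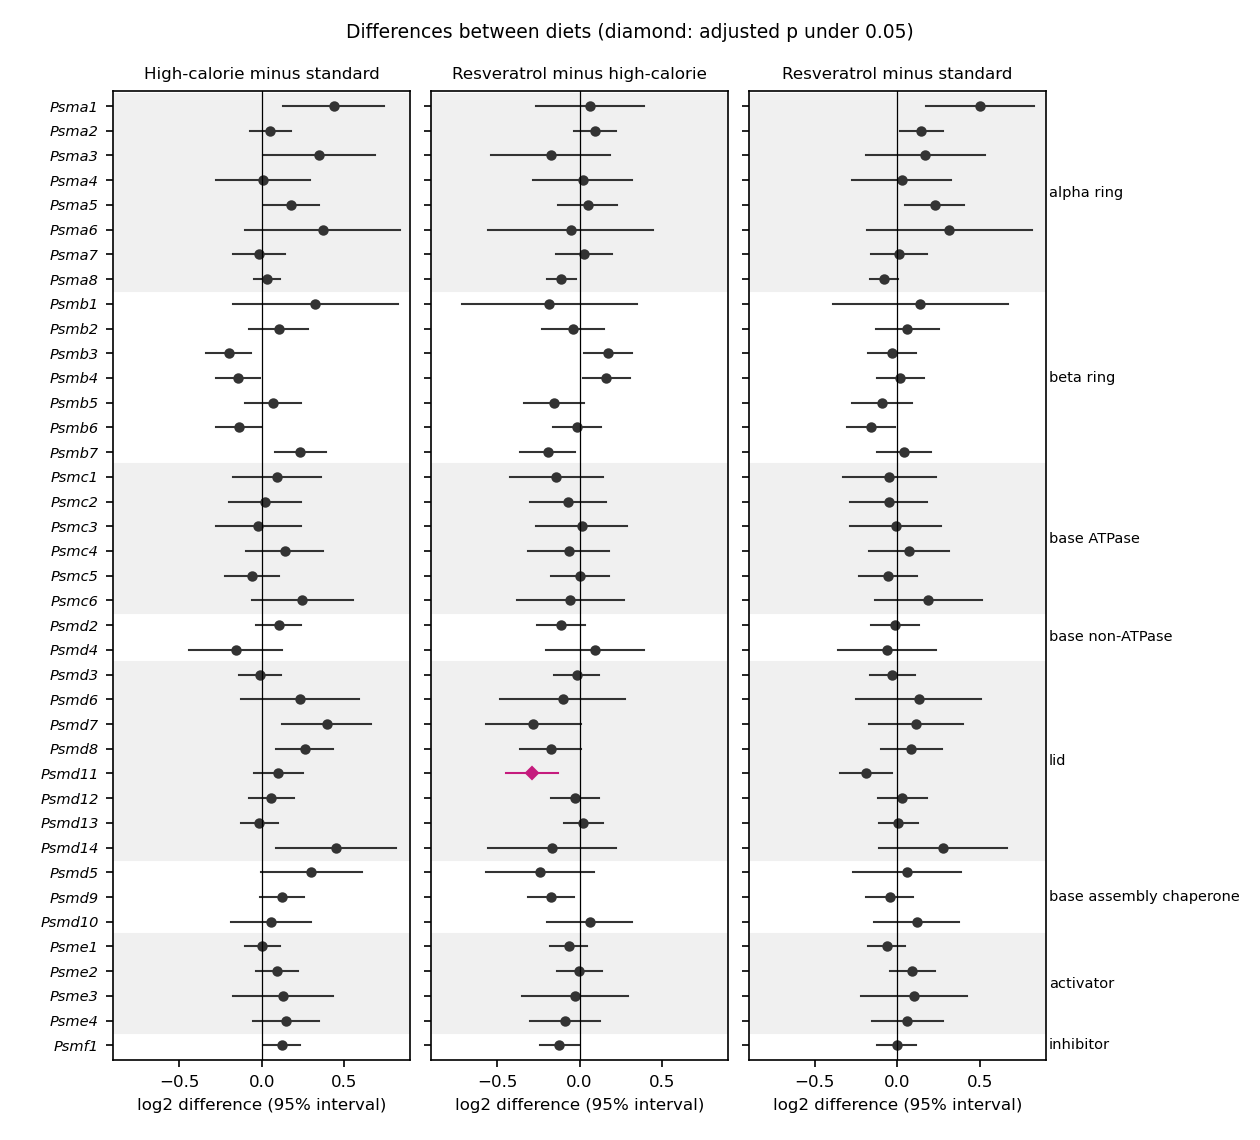
Each row is a proteasome gene, grouped by role, with its log2 difference and 95% interval in the 3 comparisons. Diamonds mark an adjusted p under 0.05, reached by Psmd11 alone, between resveratrol and high-calorie mice. The largest positive differences on the high-calorie diet are those of Psmd14 and Psma1, 0.45 and 0.44.

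Among the alpha subunits, 7 of 8 differences were positive, with a median of 0.12, and 3 were under an unadjusted p of 0.05. Psma1 was -1.02, -1.32, -0.68, -0.82 and -0.26 in standard-diet replicates 1 to 5, and -0.46, -0.36, -0.56, -0.26 and -0.27 in the high-calorie replicates. It was -0.38, -0.31, -0.37 and -0.21 in the resveratrol replicates. The standard-diet arrays were thus low and scattered, 4 of them below every other array, while replicate 5 was level with the highest high-calorie array. The difference was 0.44 (SE 0.14, adjusted p = 0.0688), and without standard-diet replicate 2 it was 0.31 (adjusted p = 0.123). Psma3 and Psma5 differed by 0.35 (adjusted p = 0.176) and 0.18 (adjusted p = 0.156), and by 0.17 and 0.11 without that array. Psma6 had the widest interval of the ring: -0.74, -1.75, -0.39, -0.44 and -0.12 on the standard diet against -0.49 to -0.16 on the high-calorie diet. Its difference of 0.37 (SE 0.22) was 0.10 without replicate 2. Psma2, Psma4 and Psma7 differed by 0.052, 0.0085 and -0.017.

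Psma8, the alpha subunit of the testis form, was measured through a probe matched by its clone name and lay close to the pool throughout. It was -0.023, -0.088, -0.033, -0.091 and -0.028 on the standard diet, 0.017, -0.060, -0.047, -0.0075 and -0.012 on the high-calorie diet, and -0.11, -0.089, -0.25 and -0.076 with resveratrol. The resveratrol arrays were all below the high-calorie arrays, with a difference of -0.11 (SE 0.040, adjusted p = 0.122). Psmb11, which was not tested, gave ratios of 0.088, 0.088, 0.13, 0.13 and 0.048 on the standard diet, 0.081, 0.053, -0.064, 0.13 and 0.094 on the high-calorie diet, and 0.11, 0.066, 0.058 and 0.082 with resveratrol, all from spots not well above background.

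The beta ring was divided. Psmb5, Psmb6 and Psmb7 carry the chymotrypsin-like, caspase-like and trypsin-like sites. Psmb7 was 0.11, -0.16, 0.19, 0.22 and 0.26 on the standard diet, 0.37, 0.39, 0.25, 0.43 and 0.34 on the high-calorie diet, and 0.0079, 0.19, 0.28 and 0.18 with resveratrol. Of the high-calorie values 4 of 5 lay above every other array, and the lowest fell among the standard-diet values. The difference of 0.23 (SE 0.073) came closest of all members to the threshold, with an adjusted p of 0.0583. It was 0.16 (adjusted p = 0.0877) without standard-diet replicate 2. A probe that the files describe as Psmb7, but that the rule did not take, gave 0.15 (adjusted p = 0.179).

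Psmb5 was 0.089, -0.14, 0.12, 0.21 and -0.11 on the standard diet, 0.19, 0.037, 0.11, 0.018 and 0.14 on the high-calorie diet, and -0.32, -0.0070, 0.052 and 0.041 with resveratrol. The first 2 groups overlapped, with a difference of 0.066 (SE 0.080, adjusted p = 0.625). Resveratrol replicate 1 lay far below the other 3 arrays of its group. Psmb6 ran the other way from most members: -0.10, 0.16, -0.11, -0.093 and -0.15 on the standard diet, -0.19, -0.24, -0.078, -0.29 and -0.20 on the high-calorie diet, and -0.38, -0.15, -0.17 and -0.17 with resveratrol. Its highest value was on standard-diet replicate 2, where most members were lowest, and the difference of -0.14 (SE 0.063, adjusted p = 0.164) was -0.088 without that array. Psmb3, a non-catalytic beta subunit, was 0.36, 0.65, 0.48, 0.46 and 0.25 on the standard diet, 0.28, 0.16, 0.32, 0.18 and 0.25 on the high-calorie diet, and 0.40, 0.37, 0.51 and 0.36 with resveratrol. All 4 resveratrol values were above all 5 high-calorie values, and on the standard diet only replicate 5 fell within the high-calorie range. The diet difference was -0.20 (SE 0.064, adjusted p = 0.0625), and that of resveratrol from high-calorie was 0.17 (SE 0.068, adjusted p = 0.156). Psmb4 differed by -0.14 on the high-calorie diet (adjusted p = 0.151). The direction of these 3 rests on the loess step: with median centring of each array in its place, the diet differences were 0.17 for Psmb3, 0.20 for Psmb4 and 0.21 for Psmb6. Psmb1, another non-catalytic subunit, was -0.031, -1.17, 0.29, 0.23 and 0.46 on the standard diet against 0.11 to 0.41 on the high-calorie diet. Its difference of 0.32 (SE 0.23) became 0.042 without standard-diet replicate 2.

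**Figure D3:**
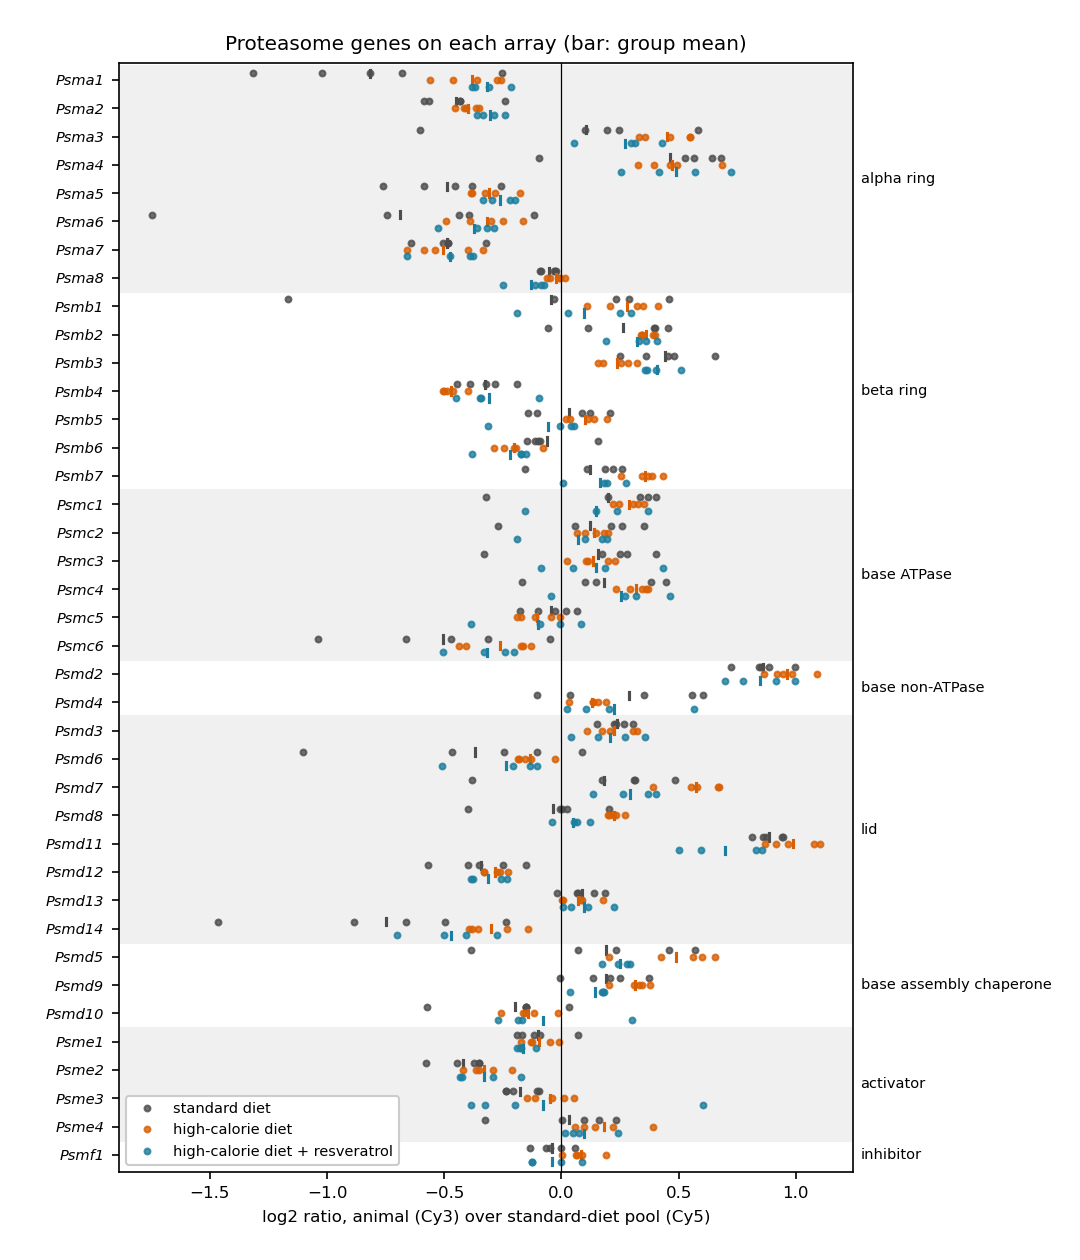
Dots show the log2 ratio of each tested proteasome gene on each array, short bars the mean of its group (5 standard-diet, 5 high-calorie, 4 resveratrol arrays). The leftmost grey dots, such as -1.75 for Psma6, -1.47 for Psmd14 and -1.17 for Psmb1, belong to standard-diet replicate 2, and the blue dots of Psmd11 all lie to the left of the orange ones.

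The ATPases of the base, which unfold the substrate and thread it into the core, had small differences. The 6 differences ran from -0.061 for Psmc5 to 0.24 for Psmc6 (0.11 without standard-diet replicate 2), with a median of 0.055, and none was under an unadjusted p of 0.05. All 6 intervals stayed within 1.5-fold. Psmd2, a scaffold of the base, differed by 0.10 (adjusted p = 0.320), and its second probe by -0.018. Psmd4, a receptor for ubiquitin chains, was 0.35, -0.11, 0.56, 0.60 and 0.037 on the standard diet, 0.13, 0.14, 0.15, 0.19 and 0.034 on the high-calorie diet, and 0.023, 0.10, 0.57 and 0.20 with resveratrol. The high-calorie arrays formed a narrow band inside the standard-diet range, and the difference of -0.16 (SE 0.13) had an adjusted p of 0.451. It was -0.26 (adjusted p = 0.186) without standard-diet replicate 2. Some probes that the files describe as proteasome genes were not taken by the rule. The probe described as Psmd1 differed by 0.29 (adjusted p = 0.0734). The probe described as Psmc6 differed by 0.31 (limma, unadjusted p = 0.00556, adjusted p = 0.0546), nearer the threshold than any member. Between resveratrol and standard-diet mice that Psmc6 probe differed by 0.42 (adjusted p = 0.1235).

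The 8 lid genes had a median difference of 0.17, and 3 were under an unadjusted p of 0.05. Psmd14, the deubiquitinase that cuts the chain from the substrate, was -0.88, -1.47, -0.50, -0.67 and -0.24 on the standard diet, -0.38, -0.14, -0.40, -0.23 and -0.36 on the high-calorie diet, and -0.70, -0.41, -0.50 and -0.28 with resveratrol. As for Psma1, 4 standard-diet arrays were below all high-calorie arrays and replicate 5 lay within the range of the latter. The difference of 0.45 (SE 0.17) was the largest of any member, with an adjusted p of 0.106, and was 0.27 without standard-diet replicate 2. A second probe of Psmd14 gave a smaller difference, 0.22 (SE 0.094, adjusted p = 0.146). Psmd7, the inactive partner of Psmd14, was 0.17, -0.38, 0.31, 0.31 and 0.48 on the standard diet, 0.67, 0.58, 0.39, 0.55 and 0.67 on the high-calorie diet, and 0.14, 0.37, 0.26 and 0.40 with resveratrol. Only the highest standard-diet and the lowest high-calorie array overlapped, and the difference was 0.39 (SE 0.13, adjusted p = 0.0627), or 0.25 (adjusted p = 0.0579) without standard-diet replicate 2. A second probe of Psmd7, matched through its accession, gave -0.083 and the remaining probe gave 0.18, so the probes of this gene disagree. Psmd8, a structural lid subunit, was -0.0046, -0.40, 0.024, 0.0024 and 0.20 on the standard diet and 0.20, 0.23, 0.20, 0.22 and 0.27 on the high-calorie diet. With resveratrol it was 0.066, 0.12, -0.039 and 0.053, below every high-calorie value. Its diet difference was 0.26 (SE 0.081, adjusted p = 0.0585), and 0.17 (adjusted p = 0.0512) without standard-diet replicate 2. Psmd3, Psmd12 and Psmd13 differed by -0.013, 0.058 and -0.016.

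The 3 chaperones of base assembly differed by 0.30 (Psmd5), 0.12 (Psmd9) and 0.056 (Psmd10), the smallest adjusted p being 0.190, and Psmd5 by 0.16 without standard-diet replicate 2. A second probe of Psmd9 gave -0.047. The activators open the core without ATP. Psme1 and Psme2 form the interferon-inducible ring PA28. Psme1 was 0.069, -0.19, -0.17, -0.093 and -0.12 on the standard diet, -0.0096, -0.13, -0.049, -0.17 and -0.13 on the high-calorie diet, and -0.18, -0.17, -0.19 and -0.11 with resveratrol. Psme2 was -0.37, -0.58, -0.45, -0.35 and -0.35, then -0.29, -0.42, -0.21, -0.36 and -0.35, then -0.42, -0.43, -0.29 and -0.17 in the same order of groups. For both genes the 3 groups overlapped, and high-calorie minus standard was 0.0024 (SE 0.049) and 0.092 (SE 0.061).

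Psme3, the nuclear activator PA28 gamma, was -0.11, -0.24, -0.24, -0.21 and -0.096 on the standard diet, -0.11, 0.0090, -0.039, -0.15 and 0.054 on the high-calorie diet, and -0.39, -0.20, 0.61 and -0.33 with resveratrol. One resveratrol array, replicate 3, lay above all 13 others, and the remaining 3 of its group lay below all high-calorie arrays. Without it Psme3 was called lower in resveratrol than in high-calorie mice (-0.26, adjusted p = 0.0394), and with it the difference was -0.030 (SE 0.15, adjusted p = 0.936). Psme4, the activator PA200, was 0.0043, -0.32, 0.16, 0.095 and 0.23, then 0.097, 0.22, 0.059, 0.39 and 0.14, then 0.049, 0.24, 0.073 and 0.014. These groups overlapped, with a high-calorie difference of 0.15 (SE 0.094, adjusted p = 0.320) that was 0.059 without standard-diet replicate 2. The inhibitor gene Psmf1 (PI31) was 0.058, -0.0017, -0.13, -0.066 and -0.051, then 0.064, 0.085, 0.0021, 0.064 and 0.19, then -0.13, -0.0040, -0.12 and 0.089. Its diet difference was 0.12 (SE 0.052, adjusted p = 0.150). Its probes disagreed: a second probe differed by 0.23 (adjusted p = 0.0166), past the threshold, and the remaining probe by -0.036.

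The count of called members depended on single arrays. Leaving out standard-diet replicate 5, the array whose values for Psma1 and Psmd14 were level with the high-calorie arrays, gave 8 called members, Psma1, Psma3, Psma5, Psmb7, Psmd7, Psmd8 and Psmd14 higher and Psmb3 lower. In that fit 5961 of all genes were called. Leaving out standard-diet replicate 2 gave 0 called members, 26 of 39 positive and a median of 0.042, and 31 of 39 differences then moved by over 1.5 times or changed sign. With standard-diet replicate 2 and resveratrol replicate 1 both left out, Psmb7 and Psmd7 were called. Arrays fell into 2 days of image extraction and 2 series of slide numbers, and the diets were not balanced over them. All standard-diet arrays were in the second series. High-calorie replicates 2, 3 and 5 were on the second day and in the second series, replicates 1 and 4 on the first day and in the first series. All resveratrol arrays were on the first day, with replicate 2 alone in the second series. Diet and batch thus cannot be fully told apart. Within the first day the median difference was 0.043, with Psma1 called, within the second day it was 0.18 with none called, and within the second slide series 0.10 with none called. Median centring in place of loess moved the median difference to 0.30, with 37 of 39 members positive and 5 called higher: Psma1, Psmb7, Psmd7, Psmd8 and Psmd11. For this fit and the fit without both arrays the share of all genes called is not given here. Their counts are thus not set against a background.

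The second question was what resveratrol changed on the high-calorie diet. Psmd11, a structural subunit of the lid, fell, and was the only member called. It was 0.94, 0.94, 0.81, 0.86 and 0.87 on the standard diet, 1.10, 0.91, 1.08, 0.87 and 0.97 on the high-calorie diet, and 0.60, 0.83, 0.50 and 0.86 with resveratrol. All 4 resveratrol arrays were below all 5 high-calorie arrays, with 0.86 and 0.87 as the closest pair. The means were 0.70 ± 0.17 (SD, n = 4) and 0.99 ± 0.10 (SD, n = 5), a log2 difference of -0.29 (SE 0.073, adjusted p = 0.0362), which is 0.818 times the high-calorie level. Of all genes 5.41% were called in this comparison, 3.17% higher and 2.24% lower, so a count of 1 in 39 is near the background. The call was lost when any of high-calorie replicates 1, 2, 3 or 5 or resveratrol replicates 1 or 3 was left out. The difference was then -0.26 (adjusted p = 0.0859), -0.31 (0.0585), -0.27 (0.0751), -0.30 (0.0744), -0.26 (0.125) and -0.22 (0.0960). The call was also lost within the first extraction day and within the first slide series. With day, slide series or replicate number as a block it was lost too (adjusted p = 0.118, 0.0939 and 0.109). A fit of only the 2 groups compared, without the standard-diet arrays, lost it as well (adjusted p = 0.0553). In the second series, with resveratrol replicate 2 as the only resveratrol array, the difference was -0.16. The direction was the same in all 35 alternatives, and 16 of them kept the call.

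Over all members resveratrol minus high-calorie had a median of -0.057, with 12 positive and 27 negative and a range of -0.29 to 0.17. At an unadjusted p under 0.05 2 members were higher (Psmb3 and Psmb4) and 5 lower (Psma8, Psmb7, Psmd9, Psmd11 and Psmf1). Of all genes 22.2% were under it, 11.2% higher and 11% lower. The probes of Psmf1 disagreed here too: the brightest gave -0.12, another -0.085 and the remaining one 0.14 (limma, unadjusted p = 0.0434). For Psmd9 the brightest probe gave -0.17 and the second -0.018. Second probes of Psmb3 and Psmd8 gave 0.17 and -0.28, with the sign of the brightest. The groups did not overlap for 5 members, Psmb3 higher and Psma8, Psmd8, Psmd9 and Psmd11 lower, against 13% of all genes, 6.84% higher and 6.17% lower. Psmb3 and Psmb4, the 2 that were higher, gave -0.032 and -0.015 with median centring. Of the lid genes 7 of 8 were negative, and all 4 activators were. The interval stayed within 1.5-fold for 38 members, Psmb1 being the exception.

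Without resveratrol replicate 1 the median was 0.0041, with 20 of 39 positive and none called. Standard-diet replicate 2 is in neither group but enters the shared estimate of spread. Without it 4 members were called lower: Psmb7 (-0.19, adjusted p = 0.0490), Psmd7 (-0.28, 0.0379), Psmd8 (-0.17, 0.0437) and Psmd11 (-0.29, 0.0320). The share of all genes called in that fit is not given here, so this count is not set against a background. Within the first extraction day the median was -0.073, and within the first slide series -0.074, with none called in either. The second slide series held resveratrol replicate 2 as its only resveratrol array, and the median there was -0.015.

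Resveratrol mice were also compared with standard-diet mice, a comparison that shares arrays with both others. None of 39 members passed by limma, where 0.219% of all genes did. At an unadjusted p under 0.05 3 members were higher (Psma1, Psma2 and Psma5) and 2 lower (Psmb6 and Psmd11), against 10.6% of all genes, 4.94% higher and 5.69% lower. The median was 0.030, with 24 positive and 15 negative. Psma1 had the largest difference, 0.50 (SE 0.15, adjusted p = 0.240), and was called once standard-diet replicate 5 was left out. Psmb6 was the only member whose groups did not overlap, where 2.93% of all genes had no overlap, 1.85% being lower, and differed by -0.16 (SE 0.067, adjusted p = 0.427), which was -0.10 without standard-diet replicate 2 or without resveratrol replicate 1 and turned to 0.020 with median centring. Without standard-diet replicate 2 the median was -0.026, with 11 of 39 positive, and without resveratrol replicate 1 it was 0.077, with 32 of 39 positive. Within the first extraction day the median was -0.0057. Within the second slide series, where resveratrol replicate 2 was the only resveratrol array, it was 0.070.

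Many members varied together from animal to animal within a diet. Deviations of each gene from its group mean were compared over the 14 arrays, as a description, since all genes of an array share its RNA, labelling and brightness. The median correlation over 741 pairs of members was 0.42, and 566 pairs were above 0. Each gene was also set against the median of the other members: the correlation was above 0.5 for 29 of 39, against 15.2% of all genes. It was highest for the ATPase Psmc1 (0.96), the lid genes Psmd6 (0.96) and Psmd7 (0.94) and the ATPase Psmc2 (0.93). Psmb3 (-0.63) and Psmb6 (-0.42) ran against the others, and Psmd11 (-0.042) and Psmf1 (0.0022) did not follow them. Standard-diet replicate 2 carried part of this: without it the median correlation of pairs was 0.27 and that with the other members 0.50, Psmb6 turned to 0.19, and Psmb3 stayed at -0.28. The within-group SD of the members had a median of 0.139 log2 units, against 0.0895 for all genes. On standard-diet replicate 2 itself, Psmb1 was 1.41 and Psma6 1.32 below the mean of the other 4 arrays of the group, the deepest of the 33 members that were lower there. Psmb3 and Psmb6 were each 0.27 above.

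The control of proteasome genes was read from a list of 41 further genes of the pathway. The list was made without the members described above. On the high-calorie diet 8 of its genes rose and 2 fell, against 9.48% of all genes called. Among genes for transcription control of the proteasome, Nfe2l1, Nfe2l2 and Irf1, a mediator of interferon signals, rose. Nfe2l2 was -0.68, -0.83, -0.79, -0.66 and -0.074 on the standard diet, 0.26, 0.16, -0.085, 0.25 and 0.18 on the high-calorie diet, and -0.51, -0.34, -1.02 and -0.46 with resveratrol. Standard-diet replicate 5 met the lowest high-calorie array, and every resveratrol array was below every high-calorie array. Nfe2l2 rose by 0.76 (SE 0.15, adjusted p = 0.00653) on the diet and was lower by 0.74 (SE 0.15, adjusted p = 0.0177) with resveratrol than without. The first call held in 33 of 35 alternatives and the second in 27. Without resveratrol replicate 1 the second had an adjusted p of 0.0550.

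Nfe2l1 was 0.12, 0.22, 0.16, 0.17 and 0.37 on the standard diet, 0.63, 0.37, 0.53, 0.48 and 0.55 on the high-calorie diet, and 0.32, 0.30, 0.32 and 0.60 with resveratrol. The highest standard-diet and the lowest high-calorie value were both 0.37, and 3 resveratrol arrays lay below all high-calorie arrays. Nfe2l1 rose by 0.30 (SE 0.067, adjusted p = 0.0144), and the call held in 29 of 35 alternatives. Irf1 was -0.27, -0.55, -0.58, -0.62 and -0.42, then -0.080, -0.014, 0.17, 0.15 and 0.23, and -0.28, 0.27, -0.22 and -0.022 with resveratrol. All high-calorie values of Irf1 were above all standard-diet values, by 0.58 (SE 0.10, adjusted p = 0.00368) on average. Ngly1, which processes NFE2L1 protein, differed by 0.29 (adjusted p = 0.0624) and was not called. The 5 members whose promoters hold TGACNNNGC had a median diet difference of 0.066, and the 27 tested members whose promoters do not had 0.10.

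Rps27a, which encodes ubiquitin fused to a ribosomal protein, fell on the diet. It was 0.50, -0.091, 0.23, 0.17 and 0.17 on the standard diet, -0.30, -0.32, -0.24, -0.30 and -0.11 on the high-calorie diet, and 0.013, 0.10, 0.048 and -0.036 with resveratrol. Every high-calorie value was below every standard-diet value, with a difference of -0.45 (SE 0.082, adjusted p = 0.00524). With median centring in place of loess the difference was -0.088 (adjusted p = 0.703). Among the 7 tested genes for assembly factors and other subunits none was called, with Pomp, which matures the core, at 0.21 (adjusted p = 0.0579). Between resveratrol and high-calorie mice 2 of the 41 genes fell, against 5.41% of all genes called, 2.24% lower. These were Nfe2l2 and Nploc4, a cofactor of the VCP segregase, the latter by 0.29 (adjusted p = 0.0172, and 0.0608 without resveratrol replicate 1). No pathway gene was called by limma between resveratrol and standard-diet mice, where 0.219% of all genes were. At an unadjusted p under 0.05 4 were higher and 2 lower, against 10.6% of all genes, 4.94% higher and 5.69% lower.

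**Figure D4:**
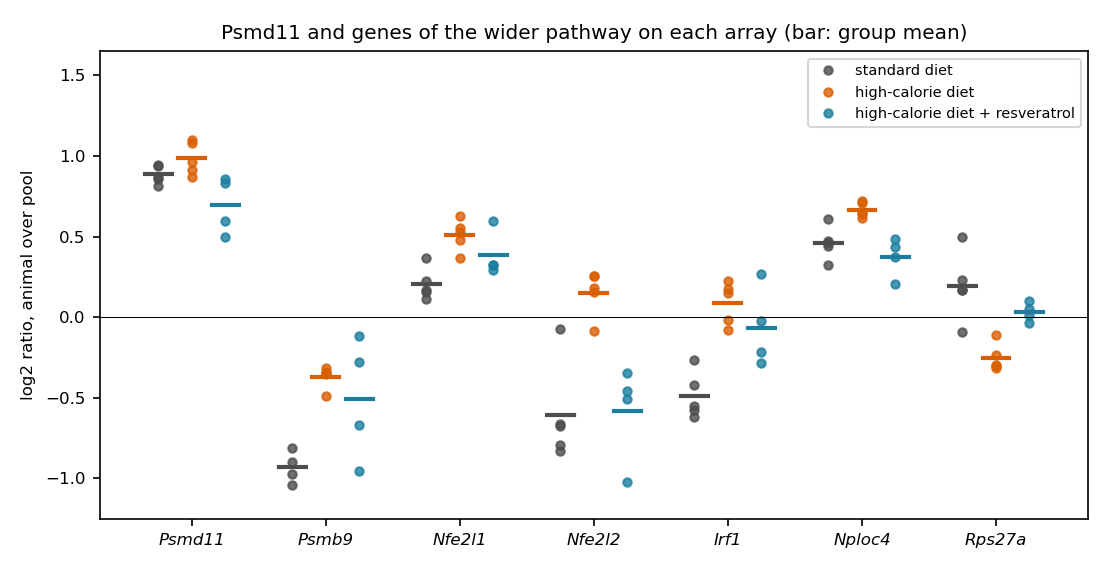
Dots show the log2 ratio on each array for Psmd11 and for 6 pathway genes that were called in a comparison, with bars at the group means. Nfe2l2 lies at -0.83 to -0.074 on the standard diet, -0.085 to 0.26 on the high-calorie diet and -1.02 to -0.34 with resveratrol.

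Immune cells and interferon-treated cells replace the 3 catalytic subunits Psmb6, Psmb7 and Psmb5 by Psmb9, Psmb10 and Psmb8. Each immunoproteasome gene was set against the constitutive gene it replaces on the same array. Psmb9 minus Psmb6 was -0.80, -1.20, -0.86 and -0.67 on standard-diet replicates 1, 2, 3 and 5, the spot of replicate 4 having been left out as an outlier. It was -0.15, -0.11, -0.27, -0.20 and -0.11 on the high-calorie diet, and -0.57, -0.13, -0.50 and 0.054 with resveratrol. Both groups on the modified diet lay wholly above the standard-diet arrays. The means were -0.88 ± 0.23 (SD, n = 4) on the standard diet and -0.17 ± 0.066 (SD, n = 5) on the high-calorie diet. The difference of 0.71 had a two-sided exact permutation p of 0.00794, the smallest 5 against 4 arrays allow, and 0.0714 after Benjamini-Hochberg adjustment over 9 such tests. Part of it is the fall of Psmb6, which rests on the loess step: with median centring Psmb6 rose by 0.21 and Psmb9 by 0.70. The lowest value, -1.20, was on standard-diet replicate 2, where Psmb6 was highest. Resveratrol minus standard was 0.59 (exact permutation p = 0.0286, adjusted 0.129), and resveratrol minus high-calorie -0.12 (exact permutation p = 0.389, adjusted 0.5). Psmb9 itself rose by 0.56 on the diet (adjusted p = 0.0195), with n = 4 on the standard diet. That call held in 27 of 34 alternatives, over which the difference was 0.24 to 0.70. It was lost without standard-diet replicate 3 (adjusted p = 0.0554) or high-calorie replicate 5 (0.0518), without background correction, with the deposited scores, within either extraction day and with Cy3 brightness as a covariate. High-calorie minus standard was -0.16 for Psmb10 minus Psmb7 (exact permutation p = 0.111) and 0.17 for Psmb8 minus Psmb5 (exact permutation p = 0.0635). None of the 9 tests passed 0.05 after adjustment. The immunoproteasome genes also had low medians on standard-diet replicate 2 and resveratrol replicate 1, -0.84 and -0.89. The macrophage markers were low on both arrays as well, -1.28 and -1.27. Their medians were also low on resveratrol replicate 2 and standard-diet replicate 1, -1.17 and -1.01, where those of the immunoproteasome genes were -0.28 and -0.20. The part of immune cells in the diet differences was not tested.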

How the data were processed

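Total liver RNA was purified with Qiagen RNeasy and labelled by Agilent low-input linear amplification, per the labels' protocols. The deposited scanner files hold spot and background intensities for both dyes, made with Feature Extraction 7.5.1 per the file headers; the deposited value table holds scores whose scale is not stated by the authors and which correlated at 0.983 to 0.985 with the log2 processed Cy3 signal of the same arrays. A genome build was not given in the sources used here. From the intensities, background was corrected with normexp (offset 50), log2 ratios of Cy3 over Cy5 were loess-normalized array by array (control spots weighted 0; 576 outlier-flagged spots removed), and spots of a probe were averaged. The log2 values were thus computed here and not taken as deposited log2 values. Probes were named through RefSeq (18190 symbols matched; 17719 probes kept the name in the files), genes needed signal well above background on at least 4 arrays, and the brightest probe stood for a gene. Saturation was checked. The number of arrays limits the precision.

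Differences were tested with limma 3.58.1 (R 4.3.3, data.table package version 1.17.8), lmFit and eBayes over all 14 arrays in 3 groups, with Benjamini-Hochberg adjustment over all 32399 genes and a threshold of 0.05. The script was tested on simulated data. Members and lists were chosen with earlier results of these data known. Array-by-array values were given for members that passed, for Psmb5, Psmb6, Psmb7, Psmb11, Psmd4, Psmd14, Psma8, Psme1 to Psme4 and Psmf1 whatever their result, and for up to 4 passing pathway genes in a direction; others are marked as chosen after their values were seen. Some genes of the lists are not reported here. The day is that on which the array image was extracted, and the slide series split the sorted slide numbers at their largest gap. No dye swap was made, so a dye effect is shared by all arrays. Alternatives covered background, scaling, probe choice, batches, array weights, the replicate number as a block and each array left out.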

Additional observations from a re-analysis of the deposited data

Results flagged for a closer look

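In 7 cases 1 array stood apart from the rest of its group by Dixon's criterion; 63 groups of values were checked, and chance alone gives about 1 in 20. The median of the proteasome genes was -0.322 on standard-diet replicate 2, against 0.058 to 0.123 on the other arrays of that diet. On the same array Psmb6 was 0.156, against -0.146 to -0.093. Resveratrol replicate 1 was low for Psmb5, at -0.315 against -0.0070 to 0.052, and for Psmb6, at -0.381 against -0.171 to -0.151. Nfe2l1 was 0.599 on resveratrol replicate 4 and 0.296 to 0.324 on the rest of its group. Nfe2l2 was -0.0745 on standard-diet replicate 5, against -0.827 to -0.661. Psmb9 was -0.489 on high-calorie replicate 4, against -0.354 to -0.316.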

How the results depend on the processing

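The median difference of the proteasome genes between high-calorie and standard diet was positive in 35 of 35 alternatives (0.042 to 0.302, the highest with median centring in place of loess; 0.042 to 0.115 with an array left out). Between resveratrol and high-calorie it was negative in 33 of 35 (-0.164 to 0.0041, and -0.074 to 0.0041 with an array left out). Between resveratrol and standard diet it was positive in 30 of 34 (-0.026 to 0.142, and -0.026 to 0.077 with an array left out). Calls moved more. In the first comparison, with 0 members called, 26 of 35 alternatives gave 0, and the others 3 without background correction, 5 with median centring, 1 with the second brightest probe, 7 with array weights, 1 with extraction day as a block, 1 within extraction day 1 and 0 to 8 with an array left out. In the second, with 1 called, 0 were called with a normexp offset of 16, the scanner's processed signals, median centring, Cy3 alone or the deposited scores. With day or slide series as a block, and within day 1 and slide series 1, 0 were also called. The mean of all probes, array weights or only the groups compared gave 2, and leaving out an array gave 0 to 4. With only the groups compared, Psmd11 was not among the 2 (adjusted p = 0.0553). Between resveratrol and standard diet, 0 to 1 were called. An alternative chosen after seeing the data, without standard-diet replicate 2 and resveratrol replicate 1 together, gave 2 called members in the first comparison and 0 in the second, and 835 and 108 genes of all in the second and in that of resveratrol with standard diet.

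Over all genes, 3072 were called in the first comparison, 948 with Cy3 alone, 409 with the scores, 7007 with array weights, 1870 with slide series as a block, 810 within day 1, 55 within day 2, 838 within slide series 2, 866 with Cy3 brightness as a covariate and 1379 to 5961 with an array left out. In the second the 1752 became 2697 without background correction, 1079 with offset 16, 699 with processed signals, 120 with median centring, 83 with Cy3 alone, 47 with the scores, 3046 with array weights, 445 and 675 with day and slide series as blocks, 52, 0 and 46 within day 1 and slide series 1 and 2, and 350 to 2566 with an array left out. Between resveratrol and standard diet the 71 became 32 without background correction and with processed signals, 17, 21 and 4 with median centring, Cy3 alone and the scores, 175 with weights, 10 with the slide block, 31 with brightness, 24 with only the groups compared and 23 to 216 with an array left out. Of the genes called in the first comparison 56.9% were higher, against 79.1% with median centring. In the second 58.6% were, against 25.8%.

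With the replicate number as a block, 1 member (Psma1), 0 and 0 were called in the 3 comparisons, and 2868, 444 and 48 of all genes. The numbers do not pair the animals: deviations of same-numbered arrays correlated above 0.1 in 3 of 5, 0 of 4 and 1 of 4 pairs. Groups of 4 or 5 animals leave differences under about the intervals given undetectable, and dim arrays carry fewer probes above background.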
